A study of Rattus norvegicus with 119 samples.

Results

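Urothelium scraped from rats after 90 days on the high dose of pioglitazone was set directly against urothelium after as long on the low dose. No vehicle array entered the difference. Vehicle and the other passing arrays of the series entered the estimate of spread. The 19 arrays of the contrast are those of 90 days that carry either pioglitazone dose and passed the submitters' quality control, out of 119 arrays in the series, of which all but 3 passed. They comprise 5 females and 5 males at 63 mg/kg/day, and 5 females and 4 males at 16 mg/kg/day. The difference was taken within each sex and then averaged over both. All animals were Sprague-Dawley rats dosed daily by mouth with pioglitazone hydrochloride, and the vehicle animals quoted for orientation received methylcellulose. Tissue was collected 1 day after the last dose by scraping the opened bladder with a scalpel, and each array holds 1 animal. The ages of the animals are not given in the sources used here.

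Pioglitazone is a thiazolidinedione, a class of insulin sensitisers that bind and activate the nuclear receptor PPAR-gamma. PPAR-gamma pairs with an RXR partner on DNA and switches on genes of fatty acid uptake, storage and oxidation, which made it known as the regulator of fat cells. The urothelium, the stratified lining of the bladder, also carries much PPAR-gamma, where the receptor takes part in differentiation towards the uroplakin-covered umbrella cells of the surface. A direct contrast of doses asks whether a response that is already present at the low dose grows with the dose.

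The arrays carried the urothelial signal their label calls for. The uroplakin gene Upk1a had a log2 signal of 17.25 to 18.24 over the high-dose arrays and 17.68 to 18.28 over the low-dose arrays, near the top of the scale. The summed level of the uroplakin and umbrella cell list (its mean log2 signal over 8 tested genes) was 14.21 to 14.94 at the high dose and 14.54 to 15.00 at the low dose. The signal of cell types from below the lining varied widely. The mean signal of 16 smooth muscle markers spanned 7.18 to 14.68 at the high dose, 7.53 to 12.35 at the low dose and 7.33 to 12.28 in vehicle animals. The 3 highest of these values belonged to high-dose arrays, with 13.79 in female 1, 14.68 in male 2 and 14.16 in male 4. The 12 adipocyte markers reached 11.81 in high-dose male 2 and lay between 6.31 and 7.89 at the low dose. In scraped tissue, fewer cells of a type and less RNA per cell cannot be told apart. All values are log2 signals as normalised by the authors, so 1 unit is a 2-fold difference, and the median signal per array was 6.4 to 6.49. Each of the 19 arrays correlated with the others at a median of 0.959 to 0.984.

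**Figure D1:**
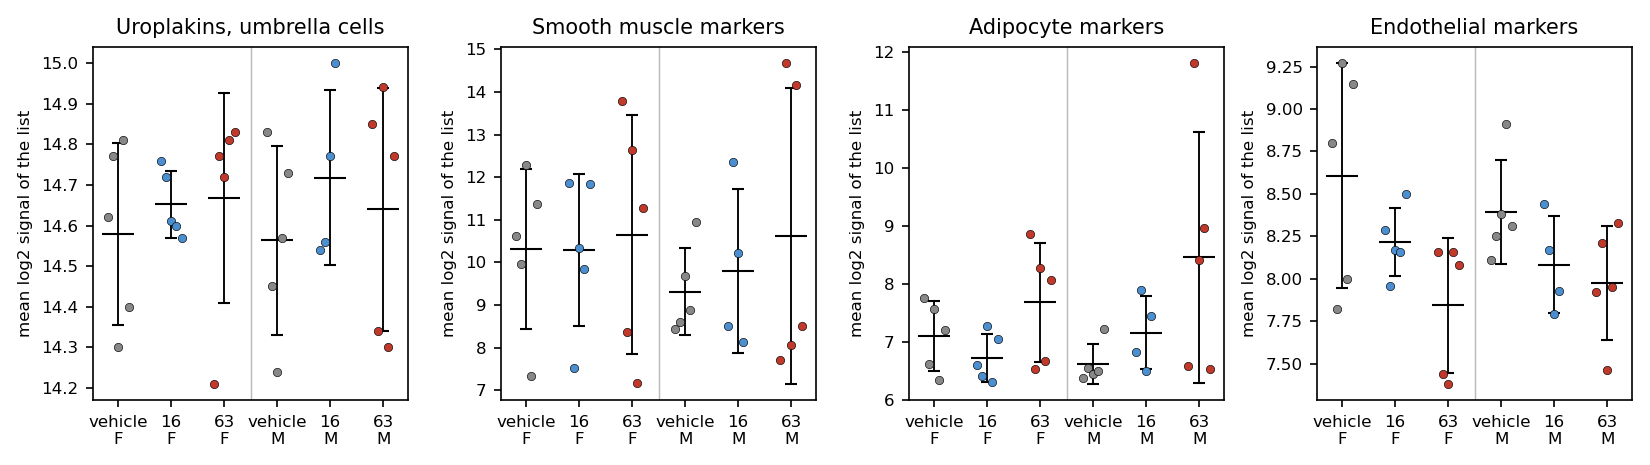
Mean log2 signal of the uroplakin and umbrella cell, smooth muscle, adipocyte and endothelial marker lists on each array at 90 days (points), with the group mean and SD (bar and whiskers), for vehicle, 16 and 63 mg/kg/day in females (F) and males (M). Urothelial signal stays between 14.21 and 15.00 in the pioglitazone arrays, whereas smooth muscle signal spans 7.18 to 14.68 and the highest adipocyte signal, 11.81, is that of high-dose male 2.

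No gene differed between the doses after adjustment. In the mean of both sexes 0 of 12713 tested genes (0.0%) passed an adjusted p of 0.05 (limma, Benjamini-Hochberg), and the smallest adjusted p was 0.711. With limma's array weights, which give discordant arrays less weight, 79 of the 12713 genes passed, 47 higher and 32 lower. Among the 79 were 6 of the 35 tested members of the chaperone list described below. Before adjustment 444 genes (3.49%) had p under 0.05, 213 of them higher (1.68%) and 231 lower (1.82%) at the high dose. Of all tested genes 44.0% stood above 0 and 56.0% below. The log2 differences ran from -1.23 to 2.09 with a median of -0.02, and 39 genes differed by more than 1, of which 36 were higher at the high dose. The 95% confidence interval typically reached 0.36 to either side (median over genes). For 11784 genes (92.7%) the whole interval lay within a 2-fold difference in either direction, and for 6883 genes (54.1%) within 0.5 log2 units.

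Against vehicle, the same high-dose arrays gave 539 called genes (4.24%) and the low-dose arrays 66 (0.519%). Both of these comparisons use the same 10 vehicle arrays. The direct contrast is the test of their difference, and it called none of these genes. Within females 3 genes passed (0.0236%) and 363 (2.86%) had an unadjusted p under 0.05. The female calls were 0 without high-dose female 1, 4 or 5 or low-dose female 5, 8 without low-dose female 1, and 0 when only the 19 arrays were fitted. Within males 0 passed in limma (0.0%), where 397 genes (3.12%) had an unadjusted p under 0.05. At 28 days the same dose contrast called 0 genes (limma; 862 or 6.78% at an unadjusted p under 0.05) and at 3 days 0 (1773 or 13.9%).

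The cytosolic chaperones had mostly higher mean signals at the high dose in females. These proteins, led by the Hsp90 and Hsp70 families with their co-chaperones and the CCT ring, fold other proteins and are induced together under heat or proteotoxic stress by heat shock factors, which bind repeated GAA and TTC blocks in promoters. The list of 38 genes was drawn up after its leading members had been seen, so its counts are a description. Of 35 tested members, 30 had higher means at the high dose in females with a median difference of 0.36, beside 49.7% and a median of -0.0 over all tested genes. In males 20 of 35 were higher with a median of 0.02, beside 43.3% and -0.04 over all genes.

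A single member, Chordc1, passed the test, in females. Promoters of 28 of the 35 tested members were in the RefSeq table (build GRCr8, 250 bases before to 50 after the start), and 5 of them held GAANNTTCNNGAA or its reverse complement TTCNNGAANNTTC, a heat shock element searched on both strands. The motif occurs in 267 of all 33469 promoters, or 0.798%. Of the 10248 tested genes with a promoter there, 46 carry it, or 0.449%. The matched stretches are shown because they belong to the genes whose values follow. They are written 5′ to 3′ on the plus strand, which is the gene's strand in each case, with the element in capitals.
Chordc1, chr8:23650828-23650857: ccgGAACGTTCGGGAAGATTCCTGAAgcag
Dnaja1, chr5:60638405-60638434: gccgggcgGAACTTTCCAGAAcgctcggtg
Hsph1, chr12:10427268-10427367: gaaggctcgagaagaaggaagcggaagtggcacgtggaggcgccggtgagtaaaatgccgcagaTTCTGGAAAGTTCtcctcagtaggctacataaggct
Hspa8, chr8:50080414-50080513: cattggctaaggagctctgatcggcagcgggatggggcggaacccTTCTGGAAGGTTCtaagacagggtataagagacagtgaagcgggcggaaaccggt
Cct4, chr14:101193074-101193103: gcgtcgctTTCTGGAAGGTTCgtggaggcg
In Chordc1 3 overlapping matches fuse into 23 bases that begin 11 bases after the annotated start, and in Dnaja1 the match begins 10 bases after it. The element of Hsph1 lies 36 to 24 bases before the start. Hspa8 holds a second element further upstream. Of all 46 tested genes that carry the motif, 23 were higher at the high dose in females, with a median difference of 0.0. A match describes the sequence and shows no binding.

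Chordc1 encodes an Hsp90 co-chaperone. Its log2 signal was 12.72, 12.69, 12.71, 12.80 and 12.83 in the 5 high-dose females and 12.61, 11.43, 11.73, 12.07 and 11.70 in the 5 low-dose females. Every high-dose female lay above every low-dose female, and low-dose female 1 lay close to the high-dose range. The female difference was 0.84 (95% interval 0.49 to 1.20, a ratio of 1.79), with an adjusted p of 0.0334 in limma. In males the high dose read 11.63, 11.82, 11.99, 11.27 and 11.89 and the low dose 11.65, 11.19, 11.40 and 11.77, so the ranges overlapped. The male difference was 0.22 (95% interval -0.16 to 0.59), and in the mean of both sexes Chordc1 stood 0.53 higher with an adjusted p of 0.711 in limma, not passing.

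Hsp90aa1 encodes the inducible form of Hsp90. High-dose females read 14.41, 14.32, 14.37, 14.37 and 14.45, and low-dose females 14.48, 13.09, 13.06, 13.50 and 13.32. All low-dose females but female 1 lay below the high-dose range. The female difference of 0.89 (95% interval 0.49 to 1.29) missed the threshold with an adjusted p of 0.0607 in limma, and the male difference was -0.03 (95% interval -0.46 to 0.40). A second probe of Hsp90aa1 gave 0.92 in females and -0.08 in males, while the third gave 0.50 and 0.57.

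Hspa1b, an inducible Hsp70, had 14.28, 14.52, 14.44, 14.61 and 14.77 in high-dose females. In low-dose females it had 15.65, 10.39, 11.49, 13.57 and 11.87, and in vehicle females 10.11, 10.85, 10.56, 14.06 and 13.29. The high-dose animals were uniformly high, whereas the other groups of females ranged over several log2 units and the highest reading of all was that of low-dose female 1. The female difference was 1.93 (95% interval 0.72 to 3.14), with an adjusted p of 0.797 in limma. Males had a difference of 0.73, and the mean of both sexes was 1.33, not passing. A dim second probe of the gene gave -0.11 in females.

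Dnaja1, a J-domain co-chaperone of Hsp70, read 13.79, 14.20, 14.30, 14.29 and 14.10 in high-dose females against 14.22, 12.50, 12.78, 13.35 and 12.71 in low-dose females. Again low-dose female 1 lay inside the high-dose range and the other low-dose females below it. The difference was 1.03 in females and 0.20 in males. Hsph1, a nucleotide exchange factor for Hsp70, stood 0.89 higher in females and 0.10 in males, and Hspa8, the constitutive Hsp70, 0.36 higher in females and -0.00 in males. Cct4, the member of the CCT ring that also carries the promoter element, had a female difference of 0.12. None of these passed.

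Low-dose female 1 moved these values. Without that array 8 of all 12713 tested genes were called in females, in place of 3. Among the 8 were 5 of the 35 tested chaperone list members: Hsp90aa1 with 1.14, Chordc1 with 1.02, Dnaja1 with 1.30, Hspb1 with 0.88 and Hspa1b with 2.69. The sex difference of the contrast was tested for each gene and passed for none of them. It was 0.92 for Hsp90aa1 (unadjusted p = 0.00241, adjusted p = 1.0, limma) and 0.62 for Chordc1 (unadjusted p = 0.0184, adjusted p = 1.0, limma). At 28 days the list's median was 0.06 and at 3 days -0.01, with 20 and 15 of 35 members higher. Set against vehicle at 90 days, 12 members were called higher and 1, Bag1, lower at the high dose, where 1.86% of all genes were higher and 2.38% lower. At the low dose 0 members were called in either direction, beside 0.267% of all genes higher and 0.252% lower. The counts of calls do not show an absence at the low dose. There 31 of 35 members stood above vehicle with a median of 0.16, and 29 with a median of 0.36 at the high dose. Over all 12713 genes 6777 stood above vehicle at the low dose and 6333 at the high dose.

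**Figure D2:**
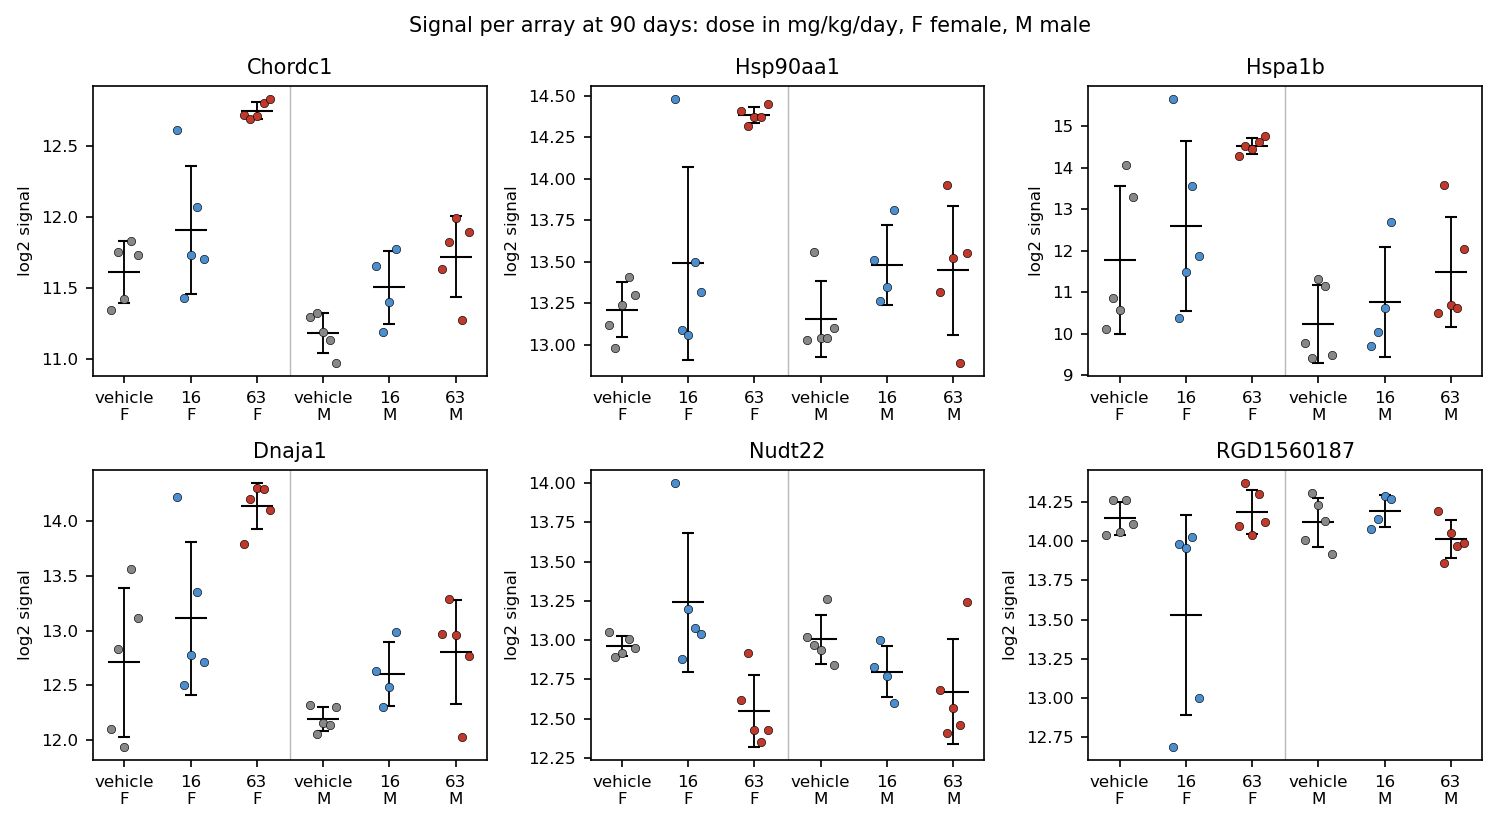
Log2 signal on each array at 90 days of the chaperone genes Chordc1, Hsp90aa1, Hspa1b and Dnaja1 and of Nudt22 and RGD1560187, with group mean and SD, for vehicle, 16 and 63 mg/kg/day in females (F) and males (M). The 5 high-dose females form a tight cluster for Hsp90aa1 (14.32 to 14.45) that 4 of 5 low-dose females lie below, and Nudt22 and RGD1560187 each have low-dose females far from the rest.

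The other called genes of the female contrast were Nudt22 and RGD1560187. Nudt22, a Nudix hydrolase, fell by 0.69 in females (95% interval -0.98 to -0.40, adjusted p = 0.0334, limma). High-dose females read 12.62, 12.92, 12.43, 12.35 and 12.43 and low-dose females 14.00, 12.88, 13.20, 13.08 and 13.04. The lowest low-dose reading lay within the high-dose range and low-dose female 1 stood above all others. Without that array the difference was -0.50 with an adjusted p of 0.38 in limma. RGD1560187, a predicted locus, read 14.10, 14.37, 14.04, 14.30 and 14.12 at the high dose and 12.69, 13.98, 13.96, 14.03 and 13.00 at the low dose. Vehicle females, at 14.04 to 14.26, lay within the high-dose range, and low-dose females 1 and 5 stood below all other arrays. The difference was 0.66 (adjusted p = 0.0325, limma). Without low-dose female 1 it was 0.45 with an adjusted p of 0.30 in limma.

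By the smallest unadjusted p in each direction, with the same sign in both sexes, 12 genes higher and 12 lower at the high dose were singled out. None of these 24 passed in the mean of both sexes. Mkks, a chaperonin-like protein needed for the primary cilium, read 10.69, 10.73, 10.72, 10.69 and 10.79 in high-dose females and 10.62, 9.73, 9.83, 10.23 and 10.05 in low-dose females. High-dose males read 10.15, 9.77, 10.07, 9.22 and 10.04 and low-dose males 9.73, 9.30, 9.06 and 9.70. The female ranges did not touch, with low-dose female 1 just below the high-dose animals, and the male ranges overlapped. The mean of both sexes was 0.52 higher (95% interval 0.25 to 0.78, unadjusted p = 0.000218, adjusted p = 0.711, limma).

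Tra2a, a regulator of splicing, was 12.09 to 12.59 in high-dose females and 11.18 to 11.73 in low-dose females, a separation not seen in males, whose ranges were 10.94 to 12.16 and 10.89 to 12.13. Grb14, an adaptor that binds the insulin receptor and restrains it, had the largest difference among the 24 genes, 0.99 (95% interval 0.46 to 1.52). Its high-dose males read 10.27, 11.77, 10.01, 10.88 and 10.20 and its low-dose males 8.25, 9.82, 8.82 and 9.93, which do not overlap. In females Grb14 ranged from 9.93 to 11.06 at the high dose and from 9.42 to 10.03 at the low dose. A second probe of the gene gave 0.86 in the mean of both sexes. The highest readings of Grb14 came from high-dose males 2 and 4 and high-dose female 1, the arrays with the most smooth muscle signal. Without these 3 arrays its difference was 0.67, a drop that leaving out its highest high-dose readings brings by construction.

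Calr, the calcium-binding chaperone calreticulin of the endoplasmic reticulum, read 13.18, 12.56, 12.58, 11.91 and 12.52 in high-dose males and 11.17, 11.28, 11.33 and 11.64 in low-dose males. All high-dose males lay above all low-dose males, while the female values of 11.38 to 13.05 and 11.18 to 12.99 covered one another. The difference was 1.20 in males (95% interval 0.62 to 1.78) and 0.18 in females (95% interval -0.37 to 0.72). The sex difference did not pass (unadjusted p = 0.0121, adjusted p = 1.0, limma). Of 21 endoplasmic reticulum chaperone and stress genes, 9 were higher with a median of -0.01, beside 44.0% and -0.02 over all genes. Atf4, a transcription factor of the stress response, stood at 0.38 and Hsp90b1, the Hsp90 of this compartment, at 0.36.

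The remaining genes of the higher set were Ahsa2, an Hsp90 cofactor, with 0.85, Ankrd37, known as a hypoxia-responsive gene, with 0.54, the poly(A) polymerase gene Papola with 0.33, the dynein light chain gene Dynll1 with 0.30, the RNA-binding protein gene Fxr1 with 0.28, the esterase gene Esd with 0.25 and Timm29, a subunit of a mitochondrial import complex, with 0.25. A second probe of Papola gave -0.09. On the lower side Rflnb, a filamin-binding regulator of the actin skeleton, read 11.77, 11.30, 11.36, 11.63 and 11.73 in high-dose females and 12.97, 12.62, 12.75, 11.90 and 12.50 in low-dose females, without overlap. In males its values of 10.93 to 12.47 and 11.61 to 12.72 overlapped. Its difference was -0.60 (95% interval from -0.93 to -0.27), with vehicle animals at a mean of 12.95 above both doses.

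Epha2, a receptor tyrosine kinase for ephrins in epithelia, was 10.67 to 11.44 in high-dose males and 11.40 to 12.92 in low-dose males, where male 4 gave the highest reading, and its difference was -0.57 in the mean of both sexes. The other lower genes were Baiap2, an adaptor of membrane protrusions, and the ubiquitin ligase gene Rnf126, both with -0.49, the centrosomal gene Odf2 with -0.44, Nudt22 with -0.41, the immediate-early gene Ier2 and the lymphocyte sphingosine phosphate receptor gene S1pr4, both with -0.35, the Golgi sulfate donor transporter gene Slc35b2 with -0.34, Nudt16l1 with -0.26, and the ribosomal protein genes Rpl27a with -0.19 and Rpl28 with -0.17. With the low-dose male that failed quality control and the other failing arrays included, Rflnb, Epha2, Ier2, Odf2, Nudt16l1 and Rpl27a turned to a positive difference (0.04 to 0.36). Ribosomal protein signals were high and even: Rpl27a read 16.67 at the high dose and 16.86 at the low dose on average.

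**Figure D3:**
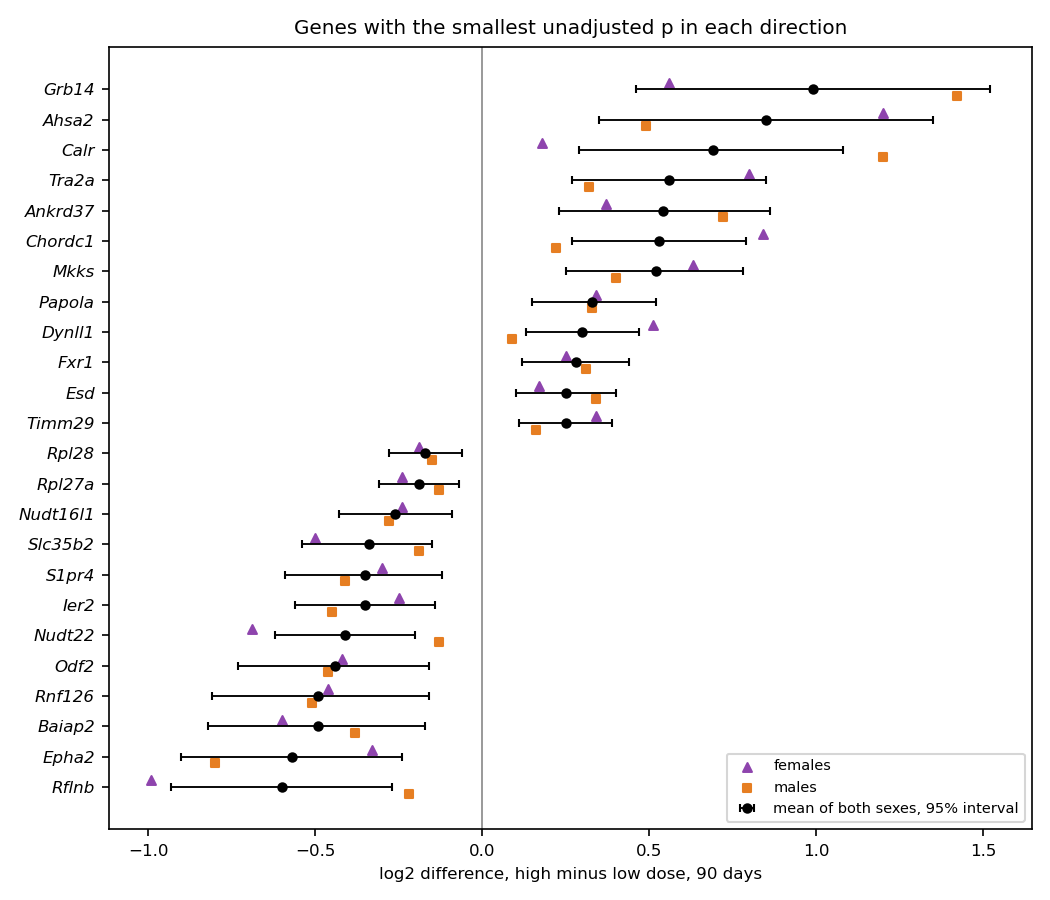
Log2 difference, high minus low dose at 90 days, of the 12 genes with the smallest unadjusted p in each direction: mean of both sexes with its 95% confidence interval (black), females (triangles) and males (squares). Every interval leaves out 0 because these genes were chosen by their p; no gene passes after adjustment, and Calr and Grb14 are larger in males whereas Chordc1, Dynll1 and Nudt22 are larger in females.

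The genes that respond to pioglitazone in this tissue were chosen without the 90-day arrays, as those that passed for both doses together against vehicle at 3 and 28 days. They were 1.85% of the genes tested, with 123 that rose (0.968%) and 112 that fell (0.881%). Against vehicle at 90 days the risen genes had a median difference of 0.48 at the high dose and 0.42 at the low dose, on the same vehicle arrays. At 90 days 66 of the 123 risen genes stood higher at the high dose than at the low dose, with a median difference of 0.02, beside 44.0% and -0.02 over all tested genes. Of the 112 fallen genes 94 stood lower, with a median of -0.16, beside 56.0% of all genes. No gene of either set passed in the mean of both sexes.

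In females 1 risen gene, the chaperone gene Chordc1, passed in the dose contrast, beside 0.0236% of all genes. In females 101 of the 123 risen genes were higher at the high dose (82.1%, median 0.19), and 93 of the 112 fallen genes were lower (median -0.18), beside 49.7% higher and 50.3% lower over all genes. In males 38 of the 123 risen genes were higher (30.9%, median -0.13) and 76 of the 112 fallen genes were lower (median -0.09), beside 43.3% and 56.7%. The sex difference passed for no gene.

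**Figure D4:**
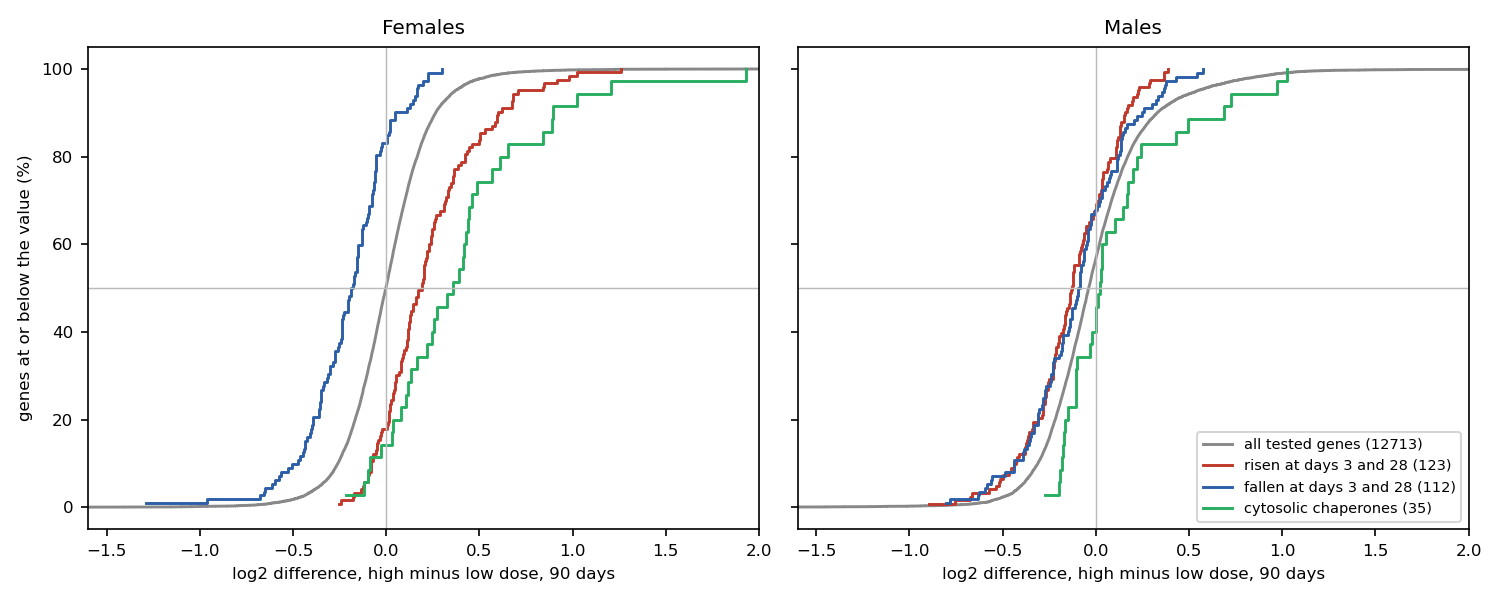
Cumulative share of genes (percent, vertical axis) by log2 difference of high minus low dose at 90 days in females and males, for all tested genes, the genes that rose or fell against vehicle at 3 and 28 days, and the cytosolic chaperones. In females the risen genes (median 0.19) and the chaperones (0.36) lie to the right of all genes and the fallen genes (-0.18) to the left; in males the medians are -0.13, 0.02 and -0.09.

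Fabp4, which carries fatty acids within cells and is a classical PPAR-gamma target, read 15.65, 15.80, 16.22, 16.30 and 14.69 in high-dose females and 14.87, 15.56, 15.03, 15.52 and 15.01 in low-dose females. High-dose males read 15.85, 15.75, 16.69, 15.15 and 16.13 and low-dose males 15.64, 15.66, 15.96 and 15.98. The doses overlapped in both sexes, and all pioglitazone animals lay above the vehicle range of 13.80 to 14.51. The difference between doses was 0.32 (95% interval -0.16 to 0.80), and the upper bound lies under a 2-fold difference.

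Cpt1c, an endoplasmic reticulum member of the carnitine palmitoyltransferase family, read 8.84, 9.60, 10.48, 10.28 and 9.13 in high-dose females and 8.60, 9.27, 8.94, 9.03 and 8.95 in low-dose females. In males it read 9.26, 8.95, 10.47, 9.24 and 9.90 at the high dose and 9.76, 9.66, 9.87 and 10.34 at the low dose. The log2 difference was 0.71 in females and -0.34 in males, with a sex difference of 1.05 (unadjusted p = 0.0165, adjusted p = 1.0, limma). Over both sexes Cpt1c stood 2.27 above vehicle at the high dose and 2.09 at the low dose.

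The peroxisomal thiolases Acaa1a and Acaa1b, which complete the shortening of very long fatty acids, stood 0.57 and 0.67 higher at the high dose in females and -0.04 and 0.00 in males. A second, dimmer probe of Acaa1a gave 0.06 in females and that of Acaa1b 0.64. Rgs17, which damps G protein signalling, had a difference of 0.30 (95% interval -0.28 to 0.88) with means of 9.36 at the high dose, 9.06 at the low dose and 6.52 in vehicle animals. Rbp7, a retinol-binding protein, had 0.36, the calcitonin gene-related peptide receptor component gene Ramp1 0.12, the thyroxine carrier gene Ttr -0.09 and the gastrokine gene Gkn1 -0.00. Among the fallen genes the transcription factor gene Pou3f1 read 7.28 at the high dose, 7.51 at the low dose and 9.04 in vehicle animals. Irak3, a brake on Toll-like receptor signalling, had -0.05, Gpt, alanine aminotransferase, 0.10, and Cracr2b -0.12.

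Of the PPAR-gamma target and lipid droplet list 17 of 23 tested genes were higher at the high dose, with a median of 0.32, and 0 passed; 8 had an unadjusted p under 0.05, all higher, beside 1.68% of all genes in that direction. Fabp3, the fatty acid carrier of heart and muscle, read 7.48, 5.91, 6.98, 7.16 and 7.05 in high-dose females and 6.17, 5.85, 5.76, 5.96 and 6.06 in low-dose females. In males it read 5.98, 10.77, 7.56, 7.53 and 6.12 against 6.57, 6.74, 6.26 and 6.59. Among males the highest reading came from high-dose male 2 and the lowest was also a high-dose male. The difference was 1.01 (95% interval 0.27 to 1.74, unadjusted p = 0.00773, adjusted p = 1.0, limma).

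The larger differences of the list belonged to genes that are also abundant in adipocytes. Cidec, a lipid droplet protein of fat cells, had 1.22, the gluconeogenic and glyceroneogenic enzyme gene Pck1 1.32, the glycerol channel gene Aqp7 1.24, the fatty acid translocase gene Cd36 1.41 and Acsl1, which activates fatty acids, 1.38. Pck1 read 4.77, 10.92, 7.06, 7.56 and 4.81 in high-dose males and 5.24, 6.26, 4.30 and 5.65 in low-dose males. Its highest readings were those of high-dose males 2, 4 and 3, the males with the most adipocyte signal. The adipocyte list itself had 11 of 12 genes higher with a median of 1.23, 6 of them at an unadjusted p under 0.05, and Adipoq, the fat cell hormone adiponectin, had the largest difference of all tested genes, 2.09. Adipoq read 14.63 in high-dose male 2, where other high-dose males read 5.78 to 10.48 and low-dose males 5.46 to 8.87.

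The 16 smooth muscle markers had a median of 0.68, with 15 higher and 0 at an unadjusted p under 0.05. Without the 3 high-dose arrays with the most smooth muscle signal, a setting chosen after seeing the data, the adipocyte median was 0.41, the smooth muscle median -1.06 and the PPAR-gamma target median 0.35, and 2 in place of 8 target genes had an unadjusted p under 0.05. Without these arrays Fabp3 stood 0.41 and Adipoq 0.67 higher. All low-dose arrays were kept, with smooth muscle signal up to 12.35. The setting therefore lowers differences that go with this signal by construction, and cannot show how much of a difference depends on it.

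The target median was lower once the adipocyte signal entered the fit. With the smooth muscle score of each array as a covariate, also added after seeing the data, it was 0.38. With the smooth muscle and adipocyte scores together it was 0.08, and 1 in place of 8 target genes had an unadjusted p under 0.05. In that fit Cidec had 0.17, Pck1 0.19, Aqp7 0.08, Cd36 0.24 and Fabp3 0.57. The adipocyte score is itself built in part from target genes, since 6 of the 23 tested targets, Cidec, Pck1 and Aqp7 among them, are also adipocyte markers. These 6 had a median of 1.03 without covariates and 0.09 with both scores, and the other 17 targets 0.16 and 0.06.

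In the list of mitochondrial fatty acid oxidation and ketone genes 21 of 25 were higher, beside 44.0% of all genes. The median was 0.07, and 2 had an unadjusted p under 0.05. By sex, 19 of 25 were higher in females (median 0.15) and 12 of 25 in males (median -0.08). The shares over all genes were 49.7% in females and 43.3% in males. Pdk4 encodes a kinase that inhibits the mitochondrial pyruvate dehydrogenase complex. It read 5.87, 6.01, 6.15, 5.90 and 5.80 in high-dose males and 5.61, 5.24, 5.64 and 5.42 in low-dose males, without overlap. In females its values overlapped, at 5.55 to 6.57 and 5.02 to 5.93, and the difference was 0.51 in the mean of both sexes. Cpt1b, the muscle form of the enzyme that admits fatty acids to mitochondria, read 7.70, 6.76, 7.18, 7.02 and 7.48 in high-dose females and 6.50, 5.95, 6.15, 6.15 and 5.81 in low-dose females. These ranges did not overlap, but vehicle females at 5.79 to 7.53 overlapped both, and among males high-dose male 2 alone exceeded 10. Oxidative phosphorylation subunits were higher for 27 of 35 genes with a median of 0.10, led by Cox6c with 0.34. Peroxisomal genes had a median of 0.04 (0.07 in females, -0.12 in males) and fatty acid synthesis genes -0.08. Sterol synthesis genes had -0.12, with 0 of 15 higher in the mean of both sexes. By sex, 8 of 15 sterol genes were higher in females and 0 of 15 in males.

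The 3 drug-metabolising genes with the smallest p were Ahrr, Aldh3a1 and Cyp1a1, which had lower mean signals at the high dose; none passed. The aryl hydrocarbon receptor, a sensor of planar aromatic compounds, is known to induce all 3, its own repressor Ahrr included. The repressor gene Ahrr read 8.07, 7.65, 7.79, 8.70 and 7.71 in high-dose females and 8.87, 9.25, 9.69, 8.64 and 9.23 in low-dose females. In males it read 8.01, 8.18, 7.93, 8.46 and 9.59 at the high dose and 8.97, 9.49, 8.83 and 9.20 at the low dose. All but 1 high-dose animal of each sex lay below the low-dose range, and vehicle animals lay above both at 9.83 to 10.84. The difference was -0.92 (95% interval -1.54 to -0.31, unadjusted p = 0.00371, adjusted p = 1.0, limma), the low-dose level being 1.89 times the high-dose level.

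Cyp1a1, the enzyme most closely tied to this receptor, had a difference of -1.17 (95% interval -2.20 to -0.13), and Aldh3a1, an aldehyde dehydrogenase, -0.94 (95% interval -1.63 to -0.24). In high-dose females Cyp1a1 read 7.91, 5.26, 5.39, 6.51 and 6.24 and in low-dose females 7.73, 8.50, 8.87, 6.60 and 8.78. High-dose male 5, at 10.11, stood within the vehicle range of 7.72 to 10.78, and the other high-dose males read 5.66 to 7.06. These 3 genes were picked by their p; of all 24 drug-metabolising genes tested 9 were higher, with a median of -0.10. Nqo1, a quinone reductase controlled by Nrf2 as well, had -0.55, and 6 of 14 Nrf2 and oxidative stress genes were higher with a median of -0.10. At 28 days the dose differences of Ahrr, Cyp1a1 and Aldh3a1 were 0.20, 0.66 and 0.59, and at 3 days -0.72, -1.32 and -0.41, so the sign was not the same at every time.

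**Figure D5:**
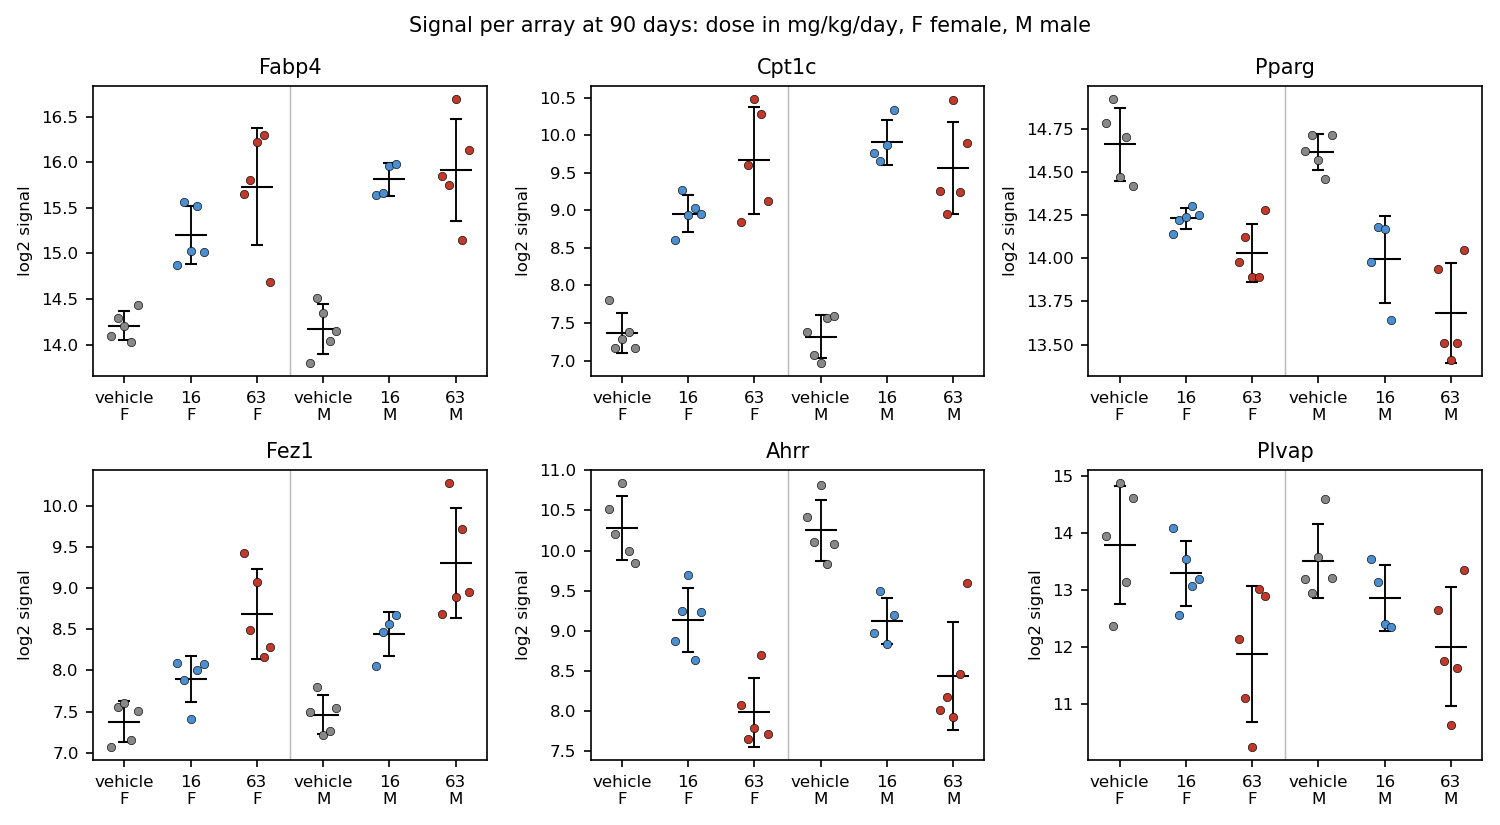
Log2 signal on each array at 90 days of Fabp4, Cpt1c, Pparg, Fez1, Ahrr and Plvap, with group mean and SD, for vehicle, 16 and 63 mg/kg/day in females (F) and males (M). Fabp4 and Cpt1c are above vehicle at both doses and overlap between them, and Pparg is below vehicle; for Fez1 every high-dose array lies above every low-dose array of its sex, and Ahrr lies below the low-dose range of its sex in every high-dose animal except female 4 at 8.70 and male 5 at 9.59.

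The endothelial gene Plvap, which forms the diaphragms of capillary openings, read 12.13, 11.10, 10.24, 13.01 and 12.89 in high-dose females and 14.08, 12.55, 13.53, 13.07 and 13.19 in low-dose females. High-dose males read 12.65, 11.75, 10.63, 11.62 and 13.35 and low-dose males 13.54, 13.14, 12.39 and 12.34. The ranges overlapped in both sexes and most high-dose animals lay at their lower end. The difference was -1.13 (95% interval -1.94 to -0.33, unadjusted p = 0.0063, adjusted p = 1.0, limma). Flt1, a VEGF receptor, had -0.41. Of 13 endothelial genes 3 were higher with a median of -0.18, beside 44.0% and -0.02 over all genes. In females 0 of 13 were higher (median -0.25), beside 49.7% of all genes, and in males 5 of 13 (median -0.13), beside 43.3%. At 28 days the direction was opposite, with 12 of 13 higher and a median of 0.30, beside 57.9% of all genes. The mean endothelial signal was 7.38 to 8.33 at the high dose and 7.79 to 8.50 at the low dose.

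Leukocyte genes also had mostly lower means. Of 20 myeloid and leukocyte markers 2 were higher, with a median of -0.18, and of 14 lymphocyte genes 3, with a median of -0.10. Over all genes 44.0% were higher. At 28 days 16 of the 20 and 8 of the 14 were higher, with medians of 0.24 and 0.07, beside 57.9% of all genes. Coro1a, an actin-binding protein of leukocytes, had -0.40 and Cd74, the MHC class II invariant chain, -0.43. With failing arrays included these became 0.08 and 0.34. MHC class II genes had a median of -0.12, chemokines and inflammatory mediators -0.13 and interferon-stimulated genes -0.21. Their medians at 28 days were 0.09, 0.17 and 0.11. Of the interferon-stimulated genes 15 of 24 were higher in females (median 0.15) and 2 of 24 in males (median -0.29). The shares over all genes were 49.7% and 43.3%. Ifit3 had 0.17 in females and -1.38 in males. Without the 3 high-dose arrays richest in smooth muscle signal, with all low-dose arrays kept, the female median was -0.10 and the male median -0.23. With array weights the medians were 0.03 and -0.40. That setting called 4 of these 24 genes in males, beside 55 of all 12713 tested genes. Globin and other erythrocyte genes had a median of 0.19 in females and -1.11 in males, and without those 3 arrays -0.33 and -1.50. In the unweighted fit of all passing arrays none of these genes passed, in either sex or for the difference between the sexes.

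The drug's own receptor gene fell against vehicle at both doses. Pparg read 13.98, 14.12, 13.89, 13.89 and 14.28 in high-dose females and 14.14, 14.22, 14.24, 14.30 and 14.25 in low-dose females. High-dose males read 13.94, 13.51, 13.41, 13.51 and 14.05 and low-dose males 13.98, 14.18, 14.17 and 13.64. Vehicle animals read 14.42 to 14.92, above every pioglitazone array of these groups. Against vehicle Pparg fell by 0.78 at the high dose (adjusted p = 2.41e-05, limma) and by 0.52 at the low dose (adjusted p = 0.046, limma). The dose difference was -0.25 (95% interval -0.52 to 0.02), and that of its partner Rxra -0.04 (95% interval -0.62 to 0.53).

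The 8 umbrella cell genes had differences of -0.19 (Tmprss2) to 0.06 (Krt20). Upk1a had a difference of -0.04 (95% interval -0.29 to 0.21), Upk3a -0.12 (95% interval -0.40 to 0.16) and the umbrella cell keratin Krt20 0.06 (95% interval -0.34 to 0.46), and the median over the 8 genes was -0.00. Basal and stratified keratins and basal markers were lower for 12 of 14 genes, with a median of -0.23, beside 56.0% of all genes. Krt5, the keratin of basal cells, had -0.61, Krt15 -0.30 and Krt4, a keratin of stratified epithelia, -0.57. Krt4 read 10.09 in high-dose and 11.05 in low-dose females on average, 9.42 and 9.59 in males, and 12.19 in vehicle animals. Squamous differentiation genes had a median of -0.10, transcription factors of urothelial differentiation -0.17, and claudins and tight junction genes -0.14, with Cldn4 at -0.38.

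In the growth-related lists no gene passed. Beside the counts that follow, 44.0% of all genes were higher. Of 33 cell cycle genes 8 were higher, with a median of -0.06, and 0 had an unadjusted p under 0.05. By sex, 19 of 33 were higher in females (median 0.06), beside 49.7% of all genes. In males 7 of 33 were higher (median -0.23), beside 43.3%. Of 17 immediate-early genes and MAPK phosphatases 2 were higher, with a median of -0.17, led by Ier2 (-0.35) and Junb (-0.41). The median of these 17 was -0.04 in females and -0.32 in males. EGF family ligands and ERBB receptors had a median of -0.18, with 0.04 in females and -0.32 in males. Hbegf, a heparin-binding EGF receptor ligand, had -0.61 and the receptor gene Erbb2 -0.31, which was 0.44 with failing arrays included. The p53 targets had a median of -0.04, the water, urea and ion transport genes -0.06 and the insulin signalling genes 0.06.

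Ranges of single arrays give the same contrast without a model. In females 83 genes (0.653%) had all high-dose arrays above all low-dose arrays and 73 (0.574%) all below, and in males 112 (0.881%) and 187 (1.47%). Only 2 genes, Fez1 and Camsap1, were above in both sexes (0.0157%) and 0 below; they are named for this after their values were seen. Fez1, a kinesin adaptor best known from neurons, read 9.43, 8.49, 9.08, 8.16 and 8.28 in high-dose females and 8.09, 7.88, 7.41, 8.01 and 8.08 in low-dose females. In males it read 8.69, 10.28, 8.90, 9.72 and 8.95 against 8.06, 8.47, 8.57 and 8.67.

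Vehicle animals, at 7.07 to 7.80, lay below all of these arrays except low-dose female 3, with a mean for Fez1 of 7.42 beside 8.17 at the low dose, and the dose difference was 0.83 (95% interval 0.13 to 1.53, unadjusted p = 0.0208, adjusted p = 1.0, limma). Its highest readings came from high-dose female 1 and males 2 and 4, the arrays rich in smooth muscle signal. Without them the difference was 0.51, a drop that leaving out the highest high-dose readings of Fez1 brings by construction. Camsap1, which caps the minus ends of microtubules, had 0.33 (95% interval 0.07 to 0.60), with 9.68 to 9.94 in high-dose females against 9.40 to 9.64 and 9.57 to 10.17 in high-dose males against 9.18 to 9.55. A dimmer probe of Camsap1 gave 0.07.

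Neither the sex difference nor the change of the dose contrast with time passed for any gene. The 5 genes with the smallest p for the sex difference were RGD1560187, Ddx60, Slc25a3, Plin3 and Fam32a, with limma adjusted p-values of 0.216, 0.216, 0.216, 0.849 and 1.0. Ddx60, a helicase induced by interferon, stood at 0.94 in females and -0.94 in males. Slc25a3, the mitochondrial phosphate carrier gene, stood at -0.25 and 0.51, and Plin3, which coats lipid droplets, at 0.28 and -0.23. For Ddx60 low-dose females read 4.32 to 5.08 and low-dose males 5.62 to 7.10, while the high-dose ranges of the sexes, 4.78 to 6.40 and 4.86 to 5.88, overlapped. In all, 341 genes (2.68%) had an unadjusted p under 0.05 for the sex difference.

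For 90 against 28 days the 5 leading genes were Atic, Ier2, Aplnr, Ankrd12 and Calr, and for 90 against 3 days Calr, Mut, Tra2a, Crebl2 and Sox13. Calr stood 0.69 higher at the high dose at 90 days, with -0.28 at 28 days and -0.41 at 3 days. Aplnr, the apelin receptor of endothelium, had -0.42 at 90 days and 0.59 at 28 days. Mut, the methylmalonyl-CoA mutase of mitochondria, had 0.44 at 90 days and -0.42 at 3 days. The smallest adjusted p was 0.999 against 28 days and 0.952 against 3 days (limma), where 501 (3.94%) and 418 (3.29%) genes had an unadjusted p under 0.05.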

How the data were processed

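Total RNA from scraped urothelium was labelled with Cy3 and read on Agilent 1-colour arrays, per the labels' protocols. The authors deposited normalised log2 values per probe, and the submitters' processing notes name limma, while the background correction and normalisation are not given in the sources used here. No scan date or slide was given, so a batch could not be tested. Of 30367 probes, 20369 carry 1 gene symbol and 9998 none. Accessions of 17237 probes matched RefSeq, which changed 2886 probe symbols. Each of 16951 genes was represented by its brightest probe, and the lowest 25% by mean signal (under 5.26) were left out, leaving 12713. No pair of arrays held identical values. Signal over background limits dim probes.

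A mean per group was estimated from all arrays that passed quality control. Contrasts of these means were tested two-sided with an intensity-trended moderated variance (limma 3.58.1, running on R 4.3.3). Benjamini-Hochberg adjustment ran over all tested genes, and an adjusted p under 0.05 was called. The p-values measure the spread between animals. Intervals are 95% intervals of the fit. Tables and plots used Python 3.11.15, pandas 2.3.3 and matplotlib 3.10.9. The fit was tested on simulated data.

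Named genes were the called genes with the same sign in both sexes, filled to 12 per direction by unadjusted p with predicted loci passed over, up to 3 genes of smallest p per list, the 5 genes of smallest p for each difference by sex or time, Pparg and Rxra. Other genes (the chaperones and responding genes beyond these, Fez1, Camsap1 and the secretory genes of the closing section) were chosen after their values were seen. The members and lists were chosen with earlier results of these data known. Alternatives changed the normalisation, the filter, the probe rule, the arrays in the fit, array weights and a replicate block.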

Additional observations from a re-analysis of the deposited data

Results flagged for a closer look

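Of 264 groups of values tested with Dixon's criterion, 12 held 1 array far from the others of its group, where about 1 in 20 groups (13.2) would by chance. Low-dose female 1 accounted for 4 of them. It read 14.00 for Nudt22 (others 12.88 to 13.20), 13.70 for Esd (13.12 to 13.25) and 17.08 for Rpl27a (16.86 to 16.92), above the rest, and 10.16 for Fxr1 (10.68 to 10.81), below the rest. Other low-dose females stood apart at 6.40 for Cd36 (female 2) and 8.70 for Pou3f1 (female 5).

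Low-dose male 4 read 12.92 for Epha2 (others 11.40 to 11.64) and 13.94 for Junb (13.36 to 13.45), and low-dose male 2 read 13.68 for Cd74 (12.11 to 12.33). At the high dose, male 2 read 10.54 for Cpt1b (others 6.01 to 7.30), female 1 16.09 for Krt15 (16.62 to 16.76) and female 5 4.98 for S1pr4 (5.48 to 5.58). High-dose male 2 and female 1 are among the 3 arrays with the most smooth muscle signal.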

How the results depend on the processing

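In the mean of both sexes 0 genes passed under every alternative except array weights, which down-weight discordant arrays and called 79 (47 higher, 32 lower, 6 of them chaperones). Array weights also gave 187 genes in females, 55 in males, 92 for the sex difference, 4 for 90 against 28 days and 1108 for 90 against 3 days. The lowest weights were those of high-dose males 2 (0.261) and 4 (0.454) and low-dose female 1 (0.555). The 3 genes called in females became 6 with quantile normalisation, 6 with 75th percentile centring, 7 with the lowest 50% left out, 0 with only the 19 arrays, 0 with arrays failing quality control included and 0 with only day 90 arrays. Covariates, chosen after seeing the data, gave 9 with the smooth muscle score and 5 with the smooth muscle and adipocyte scores. Leaving out 1 array in turn gave 0 to 8 in females and 0 to 1 for the sex difference, and 0 for the mean of both sexes, males and both time differences. The 8 came without low-dose female 1, and the 0 without low-dose female 5 or high-dose female 1, 4 or 5; without low-dose female 2, 3 or 4 the sex difference had 1.

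Including failing arrays called 2 genes in males and 1490 for 90 against 3 days, and no filter on dim genes 1 for the sex difference. Including failing arrays also turned the sign for Rflnb (0.07), Epha2 (0.12), Ier2 (0.07), Odf2 (0.04), Nudt16l1 (0.36), Rpl27a (0.04), Cd74 (0.34), Coro1a (0.08) and Erbb2 (0.44), and the covariates for muscle and fat turned Adipoq to -0.34. Each group has its own mean, and only 1 failing array, a low-dose male, belongs to the groups of the 90-day contrast. The sign changes with failing arrays therefore came with that array alone. Adipoq is itself a member of the adipocyte list whose mean was the covariate. Why the failing array differs was not tested. Of 2166 values for the mean of both sexes, where no gene was called, over 64 named genes and 34 settings, 2134 kept their sign and side of the threshold. The calls in females were less stable: that of Chordc1 was lost under 13 of 34 settings, that of Nudt22 under 11 and that of RGD1560187 under 9.

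Against vehicle, the 539 genes of the high dose became 75 with failing arrays, 2499 with array weights and 834 with the muscle score. The 66 of the low dose became 17, 1728, 135 and, with the fat score added, 139, and 43 without low-dose male 3 or without male 4. The dose contrast called 9 genes at 28 days with array weights, and at 3 days 1883 with failing arrays and 3485 with array weights.

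Same-numbered arrays of the doses correlated in their deviations at -0.48 to 0.68, with 5 of 9 pairs over 0.1. For 2 low-dose arrays the best partner was the high-dose array of the same number. Whether the numbers pair the animals cannot be told from these values. With a replicate block 0 genes passed in the mean of both sexes, 1 in females, 0 in males and 0 for the sex difference.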

Other observations

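Genes of androgen-dependent secretory glands varied widely among males, without order by dose. Scgb1d2, a secretoglobin, read 5.44, 14.49, 7.17, 13.19 and 5.65 in high-dose males and 4.65, 5.65, 4.19 and 4.46 in low-dose males. Vehicle males read 11.62, 4.73, 13.26, 7.40 and 9.60, so untreated animals also held readings above 11 and below 5. Females lay between 3.31 and 7.63 at either dose. Andpro followed the same animals, with 14.33 and 13.03 in high-dose males 2 and 4 and 11.66, 14.20 and 9.23 in vehicle males 1, 3 and 5. S100a7l2 read 13.72 and 12.53 in those high-dose males and 5.04 to 5.93 in low-dose males. High-dose males 2 and 4 are also the males with the most smooth muscle and adipocyte signal. The differences of Scgb1d2 (1.97) and S100a7l2 (1.79) are among the 39 larger than 1 and neither gene passed.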
